A study of Mus musculus with 3 samples.

Results

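The replication-dependent histone genes were taken as all gene symbols of the deposited gene list that start with Hist1h or Hist2h, which gave 64 of 32285 genes. By symbol, 6 encode the linker histone H1, 17 encode H2A, 17 encode H2B, 12 encode H3 and 12 encode H4. They were read in single cells of C57BL/6J wild-type mouse thymus cultures on culture day 13. Per the paper, the medium of both pools held the growth factor FGF7, with thiazovivin added at the start. It names no other treatment of these cultures. The ORFTOC pool held reaggregates of thymic epithelial cells grown as organoids, cells of younger embryonic thymi depleted of EpCAM-positive cells, and mouse embryonic fibroblasts (MEFs). The paper calls the MEFs wild-type and gives no strain for them. The FTOC pool held intact lobes of embryonic thymus. In each pool 2 cultures were mixed before the hashtag antibody was added, so each pool is 1 sample. No test across cultures was possible and none was run. Both pools shared 1 lane and 1 gene expression library made from polyadenylated RNA by 5′ capture. The reaggregates contain added fibroblasts and epithelium that had been cultured before, and both pools were kept outside the animal, which limits them as models of the thymus.

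Cells make these histones in bulk while they copy their DNA, since new DNA has to be packed into nucleosomes. H2A, H2B, H3 and H4 form the core of the nucleosome and H1 binds the linker DNA between cores. Their messages are the main class of animal mRNA that ends in a conserved stem-loop and not in a poly(A) tail. Stem-loop binding protein (Slbp) binds the loop and is needed for the processing, translation and timed decay of these mRNAs. In the thymus, thymocytes that have passed selection for the TCR β chain divide rapidly and then stop dividing as CD4 and CD8 double-positive cells. A kit that primes from poly(A) reads a histone mRNA mainly where it carries a tail or an internal run of A. The counts of unique molecular identifiers (UMIs) below therefore describe the captured molecules, which may be a small and uneven part of all histone mRNA. A UMI counts 1 molecule and carries no length term, but the order of 2 members by UMIs is not an order of their mRNA in the cell.

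The stem-loops are shown because they are what sets these mRNAs apart and because their place in the transcript model bears on capture. All 64 members were matched to GENCODE vM39 transcripts, 85 models in all. Of the genes, 42 had a model with a stem-loop of the consensus form while 22 had none. Some models without a loop are cut short: those of Hist1h1a and Hist2h3b end inside the loop sequence. Those of Hist1h1b and Hist1h2ak end at the stop codon. A model without a loop therefore does not show that the mRNA lacks one. Of the 6 forms found, the commonest was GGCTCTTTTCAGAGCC, in 25 genes of the H1, H2A, H2B and H3 families. The form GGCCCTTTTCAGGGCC was found in 6 genes, all of them H4. In the lines that follow, capitals mark the stem-loop and the lower case bases flank it, on the strand of the gene.
Hist1h2ap: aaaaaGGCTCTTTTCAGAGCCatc
Hist1h2ae: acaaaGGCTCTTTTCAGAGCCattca
Hist1h2bj: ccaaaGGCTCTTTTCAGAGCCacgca
Hist1h1e: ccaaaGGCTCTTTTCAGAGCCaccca
Hist1h1c: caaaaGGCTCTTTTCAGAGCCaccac
Hist1h3e: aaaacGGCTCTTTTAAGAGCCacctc
Hist1h4d: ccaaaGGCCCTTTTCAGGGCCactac
The model of Hist1h2ap ended 3 bases after the loop and that of Hist1h2bj 23 bases after it. The models ran on for 151 bases in Hist1h2ae, 369 in Hist1h3e, 770 in Hist1h4d, 840 in Hist1h1c and 1153 in Hist1h1e. Across the family, 17 genes had the loop within 50 bases of every model end, and 44 had a model that ran on for over 100 bases or held no loop.

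The ends of a pair of H2B genes are shown because their levels stood out, and the pair was picked after its values were seen. Hist2h2be was lower in cycling cells, and Hist1h2bc was higher in epithelial cells than in thymocytes. In Hist2h2be the single model had no stem-loop, and in Hist1h2bc none of the 4 coding models had one, only a model marked for nonsense-mediated decay. The 3 models of Hist1h4a held no loop either and carried a polyadenylation signal near the end. This H4 gene was 4.71-fold higher in cycling than in resting thymocytes. Below are the last bases of the models, with the polyadenylation signal in capitals (AATAAA, or the variant ATTAAA). Of the 3 different coding ends of Hist1h2bc, 1 has no such signal in these bases.
Hist2h2be: ttattattAATAAAgttaccgattagtttc
Hist1h2bc, first coding end: attgacctgctttATTAAAatttaaacatg
Hist1h2bc, another coding end: atatAATAAAtgtcatgtaaagcaaaaaaa
Hist1h2bc, coding end without a signal: tccatgactgactgaggagccttgggcaag

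The genes lie in tight groups. On the mm10 build (GRCm38), 54 members were on chromosome 13 and 10 on chromosome 3, as RefSeq places them. The group at chr13:23531044-23764412 held 29 members and 66.7% of the members' UMIs, and the group at chr13:21715711-21837530 held 18 members and 24.7%. The 10 genes at chr3:96219885-96270192 held 4.77%. Many neighbours are near copies and share reads, so the counts of single members are uncertain. By windows of 90 bases in the transcript models, 92.4% of Hist1h2ap was shared with another member, mainly Hist1h2ao, and 31.9% of Hist1h2ae with Hist1h2ad. No window of Hist1h1a, Hist1h1b, Hist2h4 or Hist2h2be was shared. Part of Hist1h1e (23.9% of windows) lies inside long models of Hist1h2be.

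Promoters are shown for the members with the most UMIs in the H2A, H4 and H2B families, since members of these families were higher together in cycling cells. RefSeq windows of 300 bases (250 before the start and 50 after it, GRCm38.p6) were at hand for 59 members. Capitals mark TATAAA on the strand of the gene and CCAAT and ATTTGCAT on either strand (ATTGG and ATGCAAAT when reversed).
Hist1h2ae, chr13:23571171-23571470, minus strand: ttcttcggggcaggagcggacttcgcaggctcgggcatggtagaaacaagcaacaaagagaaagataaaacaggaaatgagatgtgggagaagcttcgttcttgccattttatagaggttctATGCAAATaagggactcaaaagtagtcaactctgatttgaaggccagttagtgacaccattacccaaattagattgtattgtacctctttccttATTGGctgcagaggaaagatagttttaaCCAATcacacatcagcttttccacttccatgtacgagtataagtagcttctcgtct
Hist1h4d, chr13:23581318-23581617, plus strand: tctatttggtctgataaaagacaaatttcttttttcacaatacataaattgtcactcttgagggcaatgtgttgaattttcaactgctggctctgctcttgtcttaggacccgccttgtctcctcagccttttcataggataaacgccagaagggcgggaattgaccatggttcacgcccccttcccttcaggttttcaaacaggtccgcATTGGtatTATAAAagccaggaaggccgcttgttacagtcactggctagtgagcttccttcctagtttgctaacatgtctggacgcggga
Hist1h2bj, chr13:22042948-22043247, plus strand: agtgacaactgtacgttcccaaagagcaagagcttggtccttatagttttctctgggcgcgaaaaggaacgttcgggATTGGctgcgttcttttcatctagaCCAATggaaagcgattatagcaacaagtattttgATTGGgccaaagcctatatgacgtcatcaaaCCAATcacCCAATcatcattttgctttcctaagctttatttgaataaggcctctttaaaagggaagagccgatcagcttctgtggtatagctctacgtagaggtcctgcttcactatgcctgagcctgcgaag
CCAAT was in 51 of the 59 member windows (86.4%) and in 37.4% of all 32851 RefSeq windows of this length. It was in every window of the H1, H2A, H2B and H3 families and in 3 of 11 of the H4 family. TATAAA was in 29 member windows (49.2%, against 8.32% of all windows). The octamer ATTTGCAT, a site for octamer-binding factors, was in 13 member windows (22%, against 1.74%), 6 of them H2A and 7 H2B. These are matches of letters, and they say nothing of which factor binds there in these cells.

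After filtering, 8392 cells were assigned to a pool, 4247 to ORFTOC (median 8030 UMIs) and 4145 to FTOC (median 4919 UMIs). Members gave 146154 UMIs in them, 0.203% of all UMIs, and 61 of the 64 had at least 1. Hist1h2aa, Hist1h2ba and Hist1h2bq were at 0. The 5 members with the most UMIs held 58.8% of the total. Of the total, H2A genes held 37.0%, H1 34.6%, H4 14.0%, H2B 7.67% and H3 6.69%. Most defining markers followed the cell classes. Epcam had a UMI in 99.0% of epithelial cells and 3.92% of thymocytes, and Cd8b1 in 85.5% of thymocytes and 5.46% of epithelial cells. Of the 8 immune markers, 6 had a UMI in at most 13.7% of epithelial or mesenchymal cells, while Srgn (49.8% and 71.1%) and Arhgdib (77.4% and 43.0%) were common in both. Free RNA was rich in members. Barcodes with 1 to 100 UMIs, which hold mostly free RNA, had 5679.98 member UMIs per 1000000 UMIs (CPM), more than any resting class of cells.

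Cycling cells were called without any histone gene, from 30 S phase and 30 G2 and M phase genes. A cycling cell had at least 5 UMIs and at least 0.3% of its UMIs from them, a resting cell at most 0.1%, and cells between were left out (666 of 3647 thymocytes and 121 of 2199 epithelial cells). Intervals are 95% intervals, exact Poisson for a level and exact binomial for a ratio, and cover counting error only.

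Cycling cells had higher histone levels than resting cells in every lineage, and the level was highest in dividing thymocytes. The 1397 cycling cells were 16.6% of cells and held 25.2% of all UMIs, but 84.5% of member UMIs. Cycling thymocytes alone held 68.8% of member UMIs. In the lineages with few dividing cells most member UMIs lay in resting cells, with 7907 of them against 5152 in cycling epithelial cells and 928 against 817 in mesenchymal cells. The summed level in cycling thymocytes was 8881 CPM in ORFTOC (interval 8808 to 8955, 492 cells) and 10873 CPM in FTOC (10772 to 10975, 429 cells). In resting thymocytes it was 854 CPM in ORFTOC (730 cells) and 1133 CPM in FTOC (1330 cells). Both pools together gave 9655 against 1009.8 CPM, 9.56-fold higher in cycling cells (9.30 to 9.83), and the ratio was 10.4 in ORFTOC and 9.59 in FTOC. In neither pool did the intervals of the cycling and resting levels overlap.

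The same order was seen in the other lineages, at lower levels. Cycling other lymphoid cells (γδ T cells, NK or cytotoxic cells and innate lymphoid cells) had 3528 CPM in ORFTOC and 4049 CPM in FTOC, against 433 and 402 CPM in resting ones. The ratio over both pools was 9.03 (8.68 to 9.39). Cycling epithelial cells had 1934 CPM in ORFTOC (49 cells) and 2229 CPM in FTOC (66 cells), against 310.6 and 311.8 CPM in resting ones, a ratio of 6.73 (6.50 to 6.97). In mesenchymal cells the values were 1509.8 CPM in ORFTOC and 681 CPM in FTOC when cycling, with only 16 and 4 cells behind them, and 157 and 257 CPM when resting. That ratio was 7.89 (7.17 to 8.68). These ratios depend on the setting. As an alternative, a fixed share of UMIs was subtracted as free RNA, a share that was assumed and not estimated. The ratios were then 18.6 in other lymphoid, 15.6 in epithelial and 28.9 in mesenchymal cells, against 12.7 in thymocytes. Without cell cycle regression the lymphoid ratio was 4.35. Cycling epithelial cells had less than cycling thymocytes for every tested member but 1, as described with the epithelial values.

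**Figure D1:**
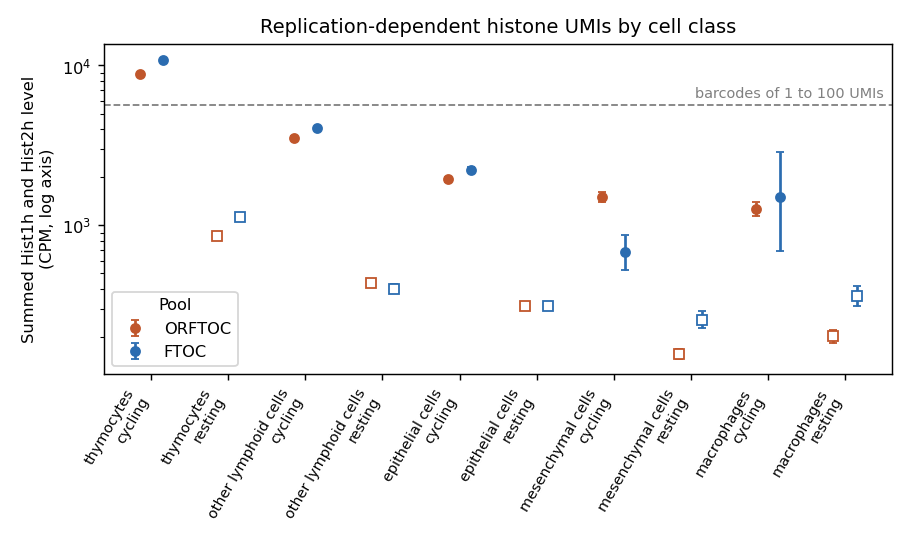
Summed level of the 64 Hist1h and Hist2h genes (CPM, log axis) by cell class and pool, with filled circles for cycling cells, open squares for resting cells, bars for 95% Poisson intervals and a dashed line for barcodes of 1 to 100 UMIs. In each class and pool the cycling cells lie above the resting cells, from 8881 and 10873 CPM in cycling thymocytes down to 157 CPM in resting mesenchymal cells of ORFTOC, and only cycling thymocytes lie above the dashed line of free RNA.

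Cycling thymocytes were also the deeper cells, with a median of 10067 UMIs against 1817.5 in resting ones. When each cell was thinned to 1000 UMIs, 87.3% of cycling and 63.7% of resting thymocytes kept a member UMI, with 61 shallower cells left out. The thinned shares were 58.6% against 35.5% in other lymphoid cells and 63.5% against 27.3% in epithelial cells. Resting cells of every class thus also carried member UMIs. Their levels were below that of the barcodes that hold free RNA, and what part of them was free RNA was not tested.

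Of the 64 members, 38 had at least 100 UMIs over cycling and resting thymocytes together, and 26 did not. All 38 were more than 2-fold higher in cycling thymocytes, where 10.5% of the 8683 genes with as many UMIs were higher by that much. Their median ratio was 9.71 (range 2.40 to 53.2), and over all genes the median was 0.838 and 15.8% were over 2-fold lower. Members pass this limit mostly through the cells in which they are high, so the 38 are not a fair sample of the 64. Within ORFTOC all 32 tested members were over 2-fold higher (12.2% of genes, with 11.8% lower), and within FTOC all 31 were (10.4%, with 14.2% lower). With a limit of 20 UMIs, 53 of 54 members were past 2-fold, as were 10.6% of the 10934 genes at that limit, and the exception was Hist2h2be.

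Among the linker histones the genes differed widely. Hist1h1b, the H1.5 gene, had 1206 CPM in cycling thymocytes of ORFTOC and 1285 CPM in FTOC, against 52.5 and 71.3 CPM in resting ones. Over both pools it was 19.6-fold higher (17.6 to 21.9). Hist1h1e (H1.4) had 852 and 948 CPM when cycling and 186 and 208 CPM when resting, a ratio of 4.49 (4.21 to 4.79). The lowest ratio of the 38 was that of Hist1h1c (H1.2), which is known to be made outside S phase too. Its level was 251 CPM in ORFTOC and 343 CPM in FTOC when cycling and 94.9 and 139.6 CPM when resting, 2.40-fold higher (2.20 to 2.61). Hist1h1a was 11.4-fold and Hist1h1d 3.97-fold higher. Hist1h1t, a testis histone, had 3 UMIs in cycling thymocytes and 0 in resting ones. In both pools the level of each of the 5 measured H1 genes was higher in cycling than in resting thymocytes.

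Core histones of the H2A family had the largest family ratio, 22.2 (20.8 to 23.7; 3970 against 179 CPM). Hist1h2ae, the member with the most UMIs (17.9% of the total), had 1753 CPM in cycling thymocytes of ORFTOC and 2279 CPM in FTOC, against 61.0 and 89.2 CPM in resting ones, 25.5-fold higher (23.1 to 28.2). Hist1h2ap had 920.3 and 1140.4 CPM when cycling and 19.1 and 26.9 CPM when resting, 42.9-fold higher (36.0 to 51.6). Hist1h2ab was 19.3-fold, Hist1h2ak 12.3-fold, Hist2h2ac 11.99-fold and Hist1h2ac 7.56-fold higher. The other family ratios were 9.44 for H2B, 9.29 for H3, 6.95 for H4 and 6.12 for H1. The H2A ratio stood above each of them, and its interval did not meet theirs.

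Among the other core histones, Hist1h4d led H4 with 759 CPM in ORFTOC and 1001 CPM in FTOC when cycling, against 90.2 and 134.9 CPM when resting, 7.41-fold higher (6.83 to 8.06). Hist2h4 was 26.0-fold, Hist1h4h 5.13-fold and Hist1h4i 4.52-fold higher. In H2B, Hist1h2bj had 252 and 265 CPM when cycling and 12.3 and 22.2 CPM when resting, a ratio of 14.4 (11.7 to 17.9). Hist1h2bm was 15.2-fold and Hist1h2bb 13.5-fold higher. In H3, Hist1h3e had 276 and 330 CPM against 31.8 and 52.2 CPM, a ratio of 6.88, and Hist1h3f was 9.01-fold higher. The highest ratio of all tested members was that of the H3 gene Hist1h3g, named here after its values were seen: 53.2 (24.3 to 145), from 623 UMIs in cycling and 6 in resting thymocytes.

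Close neighbours had unlike counts in a first case and like counts in another, both picked after their values were seen. Hist1h2ae and the H2B gene Hist1h2bg point away from each other with 180 bases between them, and they gave 26189 and 437 UMIs. Their ratios in thymocytes were 25.5 and 7.79. The H2A gene Hist1h2ah and the H2B gene Hist1h2bk, 178 bases apart, gave 85 and 82 UMIs. Of their windows, 89.6% and 71.6% are shared with other members, against 31.9% for Hist1h2ae and 45.9% for Hist1h2bg. Reads that map to several genes are not counted, and how far this lowers these counts was not tested.

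**Figure D2:**
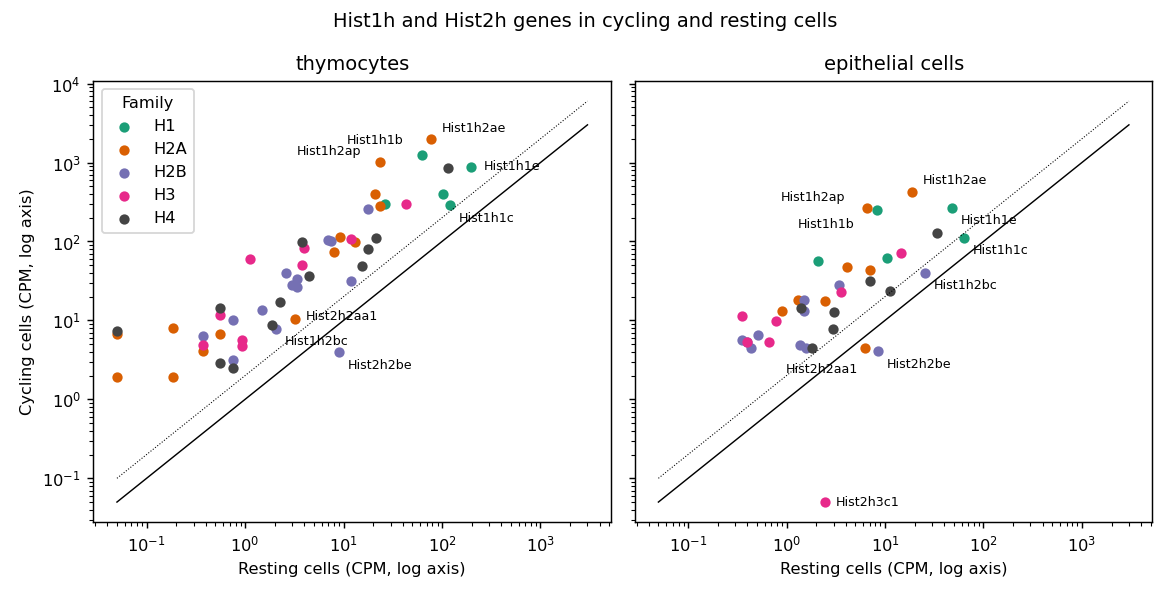
Level of each member with at least 20 UMIs in the 2 groups (CPM, log axes) in cycling cells against resting cells, for thymocytes and epithelial cells, coloured by histone family, with a solid line of equal levels, a dotted line of a 2-fold difference, and levels of 0 drawn at 0.05 CPM. Hist1h2ae lies at 1957 against 76.7 CPM in thymocytes and at 429 against 18.8 CPM in epithelial cells, while Hist2h2be lies below the line of equal levels in both.

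The members that stood out were those noted above as a pair for their transcript ends, and 1 H2A gene. All of them were singled out after their values were seen. Hist2h2be had 3.93 CPM in cycling thymocytes of ORFTOC and 3.95 CPM in FTOC, against 6.35 and 11.1 CPM in resting ones. Over both pools it was lower in cycling cells, with a ratio of 0.437 (0.281 to 0.678; 41 against 48 UMIs). The interval included 1 in ORFTOC alone (0.618, 0.313 to 1.26) and did not in FTOC (0.356, 0.183 to 0.665). In epithelial cells its ratio was 0.478 (0.226 to 0.897; 4.07 against 8.50 CPM). Among resting cells it was highest in the epithelial cluster led by Ascl3 and Foxi1 (32.4 CPM, 20.1 to 49.6) and reached 13.8 CPM in double-positive thymocytes, but only 0.945 CPM in mesenchymal cells. Free RNA held 4.48 CPM of it, less than these epithelial cells and double-positive thymocytes and more than the mesenchymal cells. The levels in cycling thymocytes (3.93 and 3.95 CPM) and cycling epithelial cells (4.07 CPM) also lay below that of free RNA. The part of free RNA in these levels of Hist2h2be was not tested.

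Hist1h2bc was the tested member that set epithelial cells apart from thymocytes, though macrophages had a level close to theirs. In resting cells it had 25.4 CPM in epithelial cells and 2.06 CPM in thymocytes, 12.3-fold higher (6.83 to 24.8), and 22.1% of resting epithelial cells had a UMI of it. It was the only one of 21 tested members above 2-fold there, where 33.2% of all genes were, and 16 of the 21 were over 2-fold lower in epithelial cells (14.6% of all genes). Cycling cells gave the same picture, with 39.8 CPM in epithelial cells against 7.87 CPM in thymocytes (5.06-fold), while 37 of 38 tested members were over 2-fold lower in epithelial cells (14% of all genes). Within epithelial cells Hist1h2bc was less tied to the cycle than the members above. It had 34.8 CPM when cycling and 27.3 CPM when resting in ORFTOC, and 44.1 and 22.5 CPM in FTOC, a ratio of 1.57 over both (1.26 to 1.94). The resting level was highest in a cluster of 24 cells led by Gnat3 and Avil, genes of tuft cells (59.1 CPM, 37.0 to 89.5), and in the cluster led by Tbata, Prss16 and Psmb11, genes of the thymic cortex (42.1 CPM, 36.5 to 48.3). It was 19.4 CPM in the cluster led by Cxcl14 and Aqp3. Macrophages (21.9 CPM) and mesenchymal cells (15.7 CPM) also had more of it than resting mature single-positive thymocytes (0.459 CPM) or NK or cytotoxic cells (0.723 CPM). Free RNA held 20.9 CPM of it. The part of free RNA in these levels of Hist1h2bc was not tested.

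Other members in epithelial cells kept the order seen in thymocytes. Of 20 tested members, 16 were over 2-fold higher in cycling epithelial cells (6.37% of all genes) and 1 was over 2-fold lower (12.4%). Within ORFTOC 11 of 15 tested members were over 2-fold higher (6.21% of genes) and 1 was lower (13.7%). Within FTOC 13 of 14 were higher (5.48%) and 0 were lower (9.57%). Hist1h2ap had 276 CPM in ORFTOC and 259.9 CPM in FTOC when cycling and 5.92 and 7.66 CPM when resting, 40.4-fold higher (34.1 to 48.2). Hist1h1b had 229 and 271 CPM against 7.42 and 9.65 CPM, 30.4-fold higher (25.9 to 35.7). Hist1h1a, at 56.1 against 2.09 CPM, was 26.9-fold higher, and Hist1h2ae 22.8-fold. Hist1h1c was again near the bottom. It had 95.5 CPM when cycling and 70.9 CPM when resting in ORFTOC, and 124 and 50.7 CPM in FTOC, a ratio of 1.76 (1.55 to 2.01). The epithelial ratio of the H2A gene Hist2h2aa1 was 0.715 and its interval included 1 (0.35 to 1.31), against 3.31 in thymocytes. Most of its windows (88.3%) are shared with its copy Hist2h2aa2. The H3 gene Hist2h3c1 had 63 UMIs in resting epithelial cells and 0 in cycling ones, and was not tested at that count. Over all its cells, the cluster led by Calcb and Aire had the highest summed level of the epithelial clusters, 857 CPM, and 29.5% of its cells were cycling.

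In other lymphoid cells all 24 tested members were over 2-fold higher in cycling cells (6.68% of all genes, with 10.6% lower), from 2.03-fold for Hist1h1c (1.77 to 2.33) to 103-fold for Hist1h2ap (69.8 to 158; 379 against 3.69 CPM). Within ORFTOC 16 of 17 tested members were over 2-fold higher (6.82% of genes, with 13.9% lower), and within FTOC all 17 were (6.6%, with 4.35% lower). Hist1h2ae had 669.5 CPM in ORFTOC and 678 CPM in FTOC when cycling and 17.5 and 19.3 CPM when resting, 37.1-fold higher. Hist1h1b was 32.4-fold, Hist1h2bj 26.1-fold, Hist1h1e 3.91-fold and Hist1h4d 3.89-fold higher. In mesenchymal cells only 6 members had 100 UMIs, and all 6 were over 2-fold higher (3.54% of all genes, with 5.31% lower), among them Hist1h2ap (65.3-fold) and Hist1h1c (2.05-fold). In every one of the 4 lineages Hist1h1c had a lower ratio than Hist1h1b, Hist1h1e, Hist1h2ae and Hist1h2ap, and the H2A family had the highest ratio of the 5 families.

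Resting lymphocytes were not alike. Double-positive thymocytes had the highest resting level, 1466 CPM (1537 cells), ahead of selected thymocytes at 915 CPM and mature single-positive thymocytes at 452 CPM. γδ T cells (418 CPM), NK or cytotoxic cells (420.1 CPM) and ILC3-like cells (447 CPM) lay close to the last of these. Hist1h1c had the same order in thymocytes, with 169.8 CPM in double-positive (155 to 186), 111 CPM in selected (79.6 to 151) and 59.2 CPM in mature single-positive cells (49.4 to 70.3). In resting epithelial cells it had 62.9 CPM, but 188 CPM in the cluster of 24 cells led by Gnat3 and Avil (147 to 238). Resting double-positive cells were shallow, with a median of 1634 UMIs, and free RNA held 349.8 CPM of Hist1h1c. The part of free RNA in these levels was not tested.

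The position within the cycle was read from the share of S phase genes among a cell's S and G2M list UMIs. Members were lower in S-leaning cells (at least 66.7% of these UMIs from S genes; 277 cells) than in G2M-leaning cells (at most 33.3%; 378 cells), with 6185 against 11107 CPM, a ratio of 0.557 (0.547 to 0.566). The ratio was 0.910 with cycling cells called from G2M genes alone and 0.334 without cell cycle regression. In ORFTOC the levels were 6439 against 10072 CPM and in FTOC 5813 against 12511 CPM. Cells between had 11142 CPM. Of 32 tested members, 16 were over 2-fold lower in S-leaning cells (5.22% of all genes) and 0 were higher by as much (2.64%). The lowest ratio was that of Hist1h3f, 0.356 (48.1 against 135 CPM), and the highest that of the H1.1 gene Hist1h1a, 1.08, whose interval included 1 (0.984 to 1.19; 268 against 248 CPM). Hist1h1b (0.808) and Hist1h3g (0.876) were nearest to it, together with the H3 gene Hist1h3a (0.858). Hist1h1c (0.433) and Hist1h4d (0.401) were among the lower ones. The family ratios ran from 0.718 for H1 down to 0.442 for H4.

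In finer steps the low level was that of the cells at the S end of the scale. From the fewest to the most S genes, the summed level over 5 bins was 12084, 10214, 11783, 9674 and 3203 CPM in cycling thymocytes. The last bin held 166 cells, in which S genes gave over 80% of the list UMIs, and 66.3% of them had under 2000 CPM, against 15.0 to 28.3% in the other 4 bins. In FTOC the first bin had 12961 CPM and the last 2331 CPM, and in ORFTOC they had 11242 and 3843 CPM. The cells of each bin varied widely, since over all cycling thymocytes the level per cell had a median of 9217 CPM and a range of 354 to 28509 CPM from the 5th to the 95th percentile. Other lymphoid cells had 3521, 7099.7, 7319, 6002 and 985 CPM in the same bins, and epithelial cells 1777, 3078, 4896, 2890.3 and 557 CPM. In these lineages the middle bins were highest and both ends lower, with only 9 to 15 epithelial cells in each of the 3 middle bins.

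Members did not all peak in the same bin. Of 37 members with enough UMIs in thymocytes, 26 were highest in the bin with the fewest S genes and 8 in the middle bin. Of the others, 2 were highest in the bin next to the S end and 1 in the remaining one. The bins in which all genes were highest were not counted, so these counts have no background share beside them. Hist1h4d went from 1291 CPM in the first bin to 707 CPM in the fourth and 244 CPM in the fifth. Hist1h1a went the other way over the first 4 bins, with 219, 294, 395 and 422 CPM, and then had 133 CPM in the fifth. Hist1h2ae had 2559 CPM in the first bin, 1875 CPM in the fourth and 607 CPM in the fifth. Some genes of the G2M list, such as Top2a and Mki67, are already made in S phase, so cells with few S genes are not only cells in mitosis. Binned by the share of 9 genes of mitosis, a list chosen after these values were seen, the levels were 7728, 12344, 10967, 6883 and 1297 CPM from the lowest share to the highest. The last of these bins held only 13 cells.

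**Figure D3:**
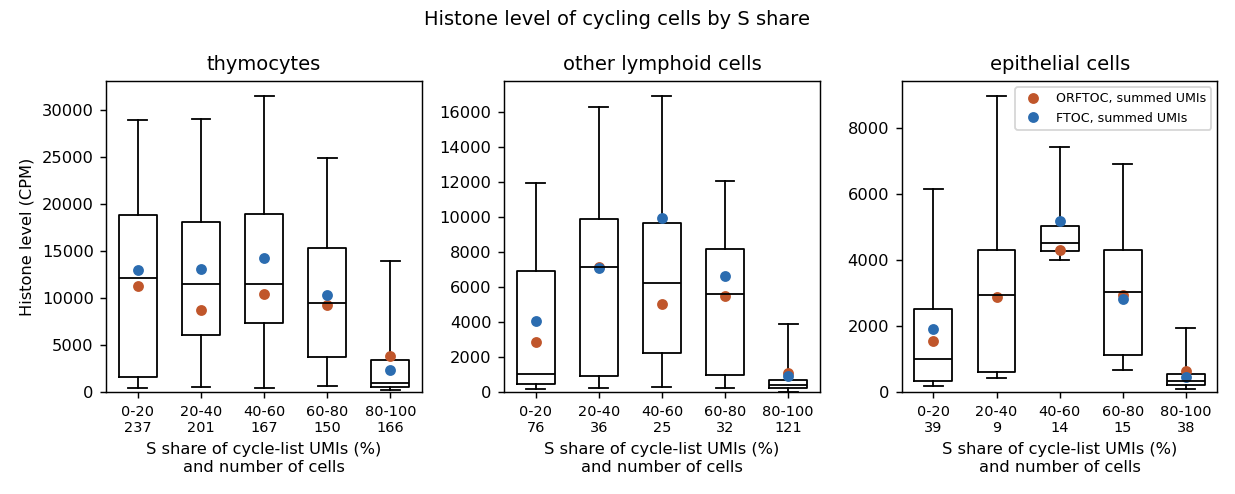
Histone level per cell (CPM) in cycling thymocytes, other lymphoid cells and epithelial cells by the S share of cycle list UMIs (% in 5 bins, number of cells below), with boxes from the 25th to the 75th percentile, a line at the median, whiskers at the 5th and 95th percentiles and points for the summed UMIs of each pool. In each lineage the bin of 80 to 100% lies lowest, at 3203, 985 and 557 CPM over both pools.

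The cultures were compared within cycling thymocytes, where ORFTOC had the lower level: 8881 against 10873 CPM, a ratio of 0.817 (0.807 to 0.827). None of the 37 tested members was 2-fold higher or 2-fold lower in ORFTOC, as were 0.121% and 0.455% of all genes. The median ratio of the 37 was 0.771, and that of all genes was 0.955. Of the 37, 3 lay above 1, all of them H4 genes: Hist1h4i (1.21, 1.04 to 1.40), Hist1h4j (1.20) and Hist1h4b (1.13). The lowest was another H4 gene, Hist2h4, with 79.6 CPM in ORFTOC and 125.5 CPM in FTOC (0.634, 0.560 to 0.719). In resting thymocytes the ratio of the summed level was 0.753 (0.713 to 0.796), and none of 12 tested members was 2-fold different, as were 0.55% of genes higher and 1.1% lower. With 1 sample per pool, a difference between cultures and a difference between pools cannot be told apart.

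This difference moved with the makeup of the cycling cells, which was broken down after the values were seen. Cluster 8, led by Rrm2, Fbxo5, Pbk and Nusap1, had the highest level, 17674 CPM in ORFTOC and 19615 CPM in FTOC, and it held 142 of 492 cycling thymocytes in ORFTOC and 183 of 429 in FTOC. Cluster 7, led by Tubb3 and Ube2c, had 7065 CPM in ORFTOC and 6472 CPM in FTOC. Cluster 11, led by Ly6c2 and Tk1, had 8338 and 8496 CPM. The 51 cycling mature single-positive cells had 1180.0 and 634 CPM. So ORFTOC was below FTOC in cluster 8 and above it in clusters 7 and 3, while the levels in cluster 11 were close. The part of the makeup in the pooled difference was not tested. Where cluster 8 was not counted as thymocytes the pooled ratio turned to just above 1, as given in the closing section.

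**Figure D4:**
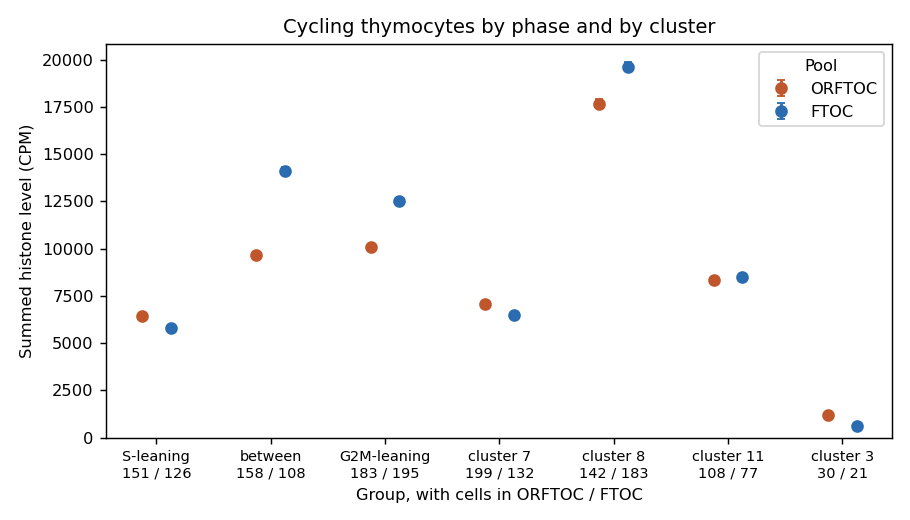
Summed histone level (CPM) of cycling thymocytes in ORFTOC and FTOC by phase group and by cluster, with the number of cells in each pool under the name and bars for 95% Poisson intervals. ORFTOC lies below FTOC in the G2M-leaning group (10072 against 12511 CPM) and in cluster 8 (17674 against 19615 CPM), and above it in the S-leaning group and in clusters 7 and 3.

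Resting epithelial cells of both cultures were closer, and cycling ones were not clearly so. The resting cells had 310.6 CPM in ORFTOC and 311.8 CPM in FTOC, with a ratio of 0.996 (0.952 to 1.04) whose interval included 1. Cycling epithelial cells had a ratio of 0.868 (0.821 to 0.918), and this interval met that of cycling thymocytes (0.807 to 0.827). The ratio turned to 1.04 when doublets within pools were kept. Neither the 11 members tested in cycling cells nor the 15 in resting cells held 1 that was 2-fold different. For comparison, 1.18% of genes were 2-fold higher and 1.08% lower in ORFTOC in cycling epithelial cells, and 3.83% and 2.89% in resting ones. By family the cycling ratio was 1.01 for H2A, 0.910 for H4, 0.788 for H1, 0.676 for H3 and 0.651 for H2B. Other lymphoid cells had a ratio of 0.871 when cycling and 1.08 when resting, and none of the 23 and 6 members tested there was 2-fold different. Of all genes, 0.284% were 2-fold higher and 0.466% lower in cycling other lymphoid cells of ORFTOC, and 4.23% and 1.46% in resting ones.

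The genes that process and carry these histones were read beside them in thymocytes. Of 16 such genes, 15 had enough UMIs, and 7 of them were over 2-fold higher in cycling cells and 0 were over 2-fold lower, where 10.5% of all genes were higher and 15.8% lower. Slbp, which binds the stem-loop, had 383 CPM in cycling and 50.6 CPM in resting thymocytes (7.56-fold). Histone chaperones were among the highest: Asf1b, which hands H3 and H4 on to the replication fork, was 26.1-fold higher (206 against 7.88 CPM). The chromatin assembly factor genes Chaf1a and Chaf1b were 14.9-fold and 5.10-fold higher, and Nasp, a store of free H3 and H4, 4.42-fold. Hat1, which acetylates new H4, was 3.69-fold higher, and Eri1, an exonuclease that trims the stem-loop end, 2.29-fold. Lsm11 of the U7 particle (1.67), Asf1a (1.66), Casp8ap2 (1.47) and Sympk (0.997) stayed within 2-fold. So did Cpsf3, the nuclease that cuts the histone pre-mRNA (0.927), Hinfp, an H4 gene activator (0.655), Lsm10 (0.653) and Npat, the coactivator of histone genes (1.22). Zfp473 had only 15 UMIs. Of these genes, 7 of 14 were over 2-fold higher in other lymphoid cells (6.68% of all genes), 7 of 14 in epithelial cells (6.37%) and 5 of 9 in mesenchymal cells (3.54%), and 0 were over 2-fold lower.

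Across the cycle Slbp and the members differed in direction. Slbp had 485 CPM in S-leaning and 196 CPM in G2M-leaning thymocytes (2.47-fold), and Chaf1b (4.59), Chaf1a (2.61), Casp8ap2 (2.16) and Hat1 (2.11) were also over 2-fold higher in S-leaning cells. Asf1b was not (0.894). Each of the 32 tested members except Hist1h1a lay below 1 in the same cells, with a median ratio of 0.504. The median over all genes was also below 1, at 0.934.

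Replacement histones, whose mRNAs are mostly polyadenylated and which can be put into chromatin without DNA synthesis, gave a split picture. The centromere histone Cenpa (12.6-fold, 379 against 30.003 CPM), H2afx (8.78-fold), which marks DNA breaks, and H2afz (7.97-fold, 3579 against 449 CPM) were as much higher in cycling thymocytes as many members. H1fx (3.17) and H2afv (3.14) were over 2-fold higher as well. The H3.3 genes H3f3a (1.02) and H3f3b (0.891) and the macroH2A gene H2afy (0.952) were close to 1. H1f0, the linker histone of resting and differentiated cells, was lower in cycling thymocytes, 72.1 against 163 CPM (0.442). Thus 5 of the 9 measured were over 2-fold higher (10.5% of all genes) and 1 was over 2-fold lower (15.8%), while H2afy2 had too few UMIs. Of the histone genes named Hist3h and Hist4h, Hist4h4 was 2.88-fold higher and Hist3h2ba was lower (0.450, 54.5 against 121 CPM). Hist3h2a had 8 and 22 UMIs, too few to test.

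**Figure D5:**
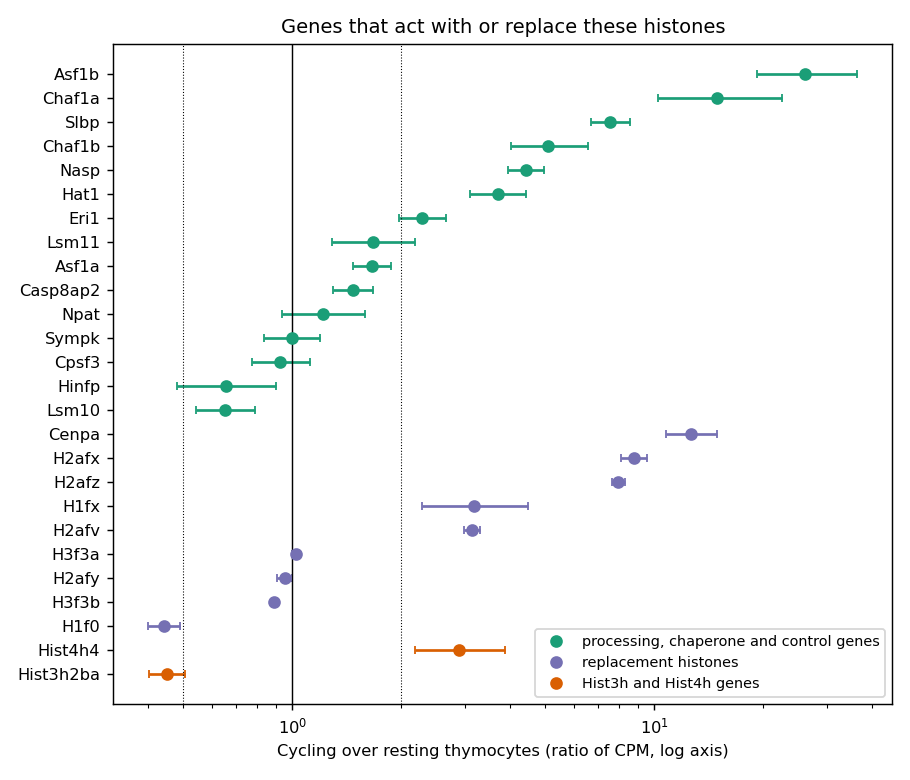
Ratio of the level in cycling to that in resting thymocytes (log axis, bars for 95% intervals) for genes that process, carry or control histones, for replacement histones and for Hist3h and Hist4h genes, with a solid line at 1 and dotted lines at 0.5 and 2. Asf1b stands highest at 26.1, Slbp is at 7.56, H3f3a and H3f3b lie near 1, and H1f0 and Hist3h2ba lie below 0.5.

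Assembled TCR contigs gave a second view of the dividing thymocytes. A productive TRB contig, the sign of a rearranged β chain gene, was found in 87.5% of cycling thymocytes. The summed histone level was 10787 CPM in the 549 cells with TRB and no TRA contig, 8379 CPM in the 257 with both, and 7729 CPM in the 115 without TRB. Cells with TRB alone were thus the highest of the 3 groups. The groups also differ in the classes they draw on. Both contigs were found in 94.1% of cycling mature single-positive cells and 62.4% of the cells of cluster 11. In clusters 7 and 8 they were found in 10.7% and 15.5% of cells. The part of this makeup in the order of the groups was not tested. Their median depth was the lowest, 8971 UMIs, against 11154 in cells with both and 12325 in cells without TRB.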

How the data were processed

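The authors deposited 1 unfiltered matrix of gene UMI counts per barcode, with hashtag counts as its last rows, and lists of assembled TCR contigs. Per the labels, HTO_1 marks FTOC and HTO_2 ORFTOC. The submitters' processing notes name Cell Ranger 6.1.2, mm10 and Seurat 4.2.0, whereas the matrix header names another version of Cell Ranger. Reads that map to several genes are not counted by Cell Ranger, and how far this lowers near-identical members was not tested.

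Of 705161 barcodes, 10910 had at least 600 genes and 10245 of these had 0.4 to 10% mitochondrial UMIs. HTODemux (Seurat 5.3.0, R 4.3.3, quantile 0.99) left 672 negative and marked 590 doublets between pools. A rebuilt neighbour rule (50 neighbours, 50 components) removed 591 within pools. Cells were clustered with SCTransform (sctransform 0.4.2, cell cycle scores regressed out, 18 components, resolution 0.4, and 1 for immune cells) on features without the 64 members. Each cluster was named for the class whose markers stood out most in it by mean log2 fold (pseudocount 10 CPM), if at least 3 markers were in 5% of its cells and 1 was among its 10 leading genes in 10% of cells. After the data were seen, members were also kept out of the leading genes. The immune resolution was lower than that of the study, so classes may differ from the study's.

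UMIs were summed by class, state and pool and scaled to CPM (Python 3.11.15, numpy 2.4.6, scipy 1.17.1, pandas 2.3.3). Each pool is 1 sample, so no test was run. Intervals are 95%. A count of called genes means past 2-fold among genes with at least 100 UMIs in both groups together, with counts under 3 set to 3. Depth limits rare members, since 20 of 64 had under 100 UMIs. The ratio script was tested on simulated data. Members, gene lists and limits were chosen with earlier results of these data known. The text names the 20 members with the most UMIs, any tested member under 2-fold in thymocytes and all genes of the partner lists, and other members, chosen after their values were seen, where they mark an extreme or an exception. Stem-loops were searched in GENCODE vM39 transcripts, and positions and promoters come from RefSeq GRCm38.p6. Columns of samples outside the series were not found. Alternatives are given in the closing section.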

Additional observations from a re-analysis of the deposited data

Results flagged for a closer look

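Barcodes outside the comparisons also held members. The 672 barcodes without a hashtag had a summed histone level of 1104 CPM (4434 UMIs), the 590 doublets between pools had 2278 CPM (19143 UMIs) and the 591 doublets removed within pools had 2169.9 CPM (18032 UMIs). These levels lie between those of resting and cycling thymocytes of both pools together (1009.8 and 9655 CPM). Resting thymocytes of FTOC alone, at 1133 CPM, lay above the barcodes without a hashtag. The H2A gene Hist2h2aa1 was 3.31-fold higher in cycling than in resting thymocytes and had a ratio of 0.715 in epithelial cells, below 1 in both pools (0.565 in ORFTOC and 0.848 in FTOC). The difference between the lineages was not tested, and 88.3% of the windows of Hist2h2aa1 are shared with Hist2h2aa2.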

How the results depend on the processing

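No paired analysis was possible because each pool is 1 sample and no ratio comes from a test. In the following, values stand for the ratio of cycling to resting cells in thymocytes, other lymphoid, epithelial and mesenchymal cells, then for S-leaning over G2M-leaning thymocytes, for ORFTOC over FTOC in cycling thymocytes and in cycling epithelial cells. As reported they were 9.56, 9.03, 6.73, 7.89, 0.557, 0.817 and 0.868. Only those that moved beyond their interval are printed.

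With members among the clustering features the thymocyte, lymphoid, S and thymocyte pool ratios were 10.9, 7.83, 0.573 and 0.783. With hashtags set by their ratio the thymocyte ratio was 6.67, the lymphoid 9.89, the epithelial 8.22, the S ratio 0.657 and the epithelial pool ratio 0.961, and the thymocyte pool ratio turned to 1.01. With at least 1000 genes per cell the thymocyte ratio was 11.8, the S ratio 0.423 and the pool ratio 0.800. With doublets within pools kept they were 10.3, 0.462 and 0.804, with 9.54 in lymphoid and 8.82 in epithelial cells, and the epithelial pool ratio turned to 1.04. Without cell cycle regression the thymocyte, lymphoid, S and pool ratios were 9.24, 4.35, 0.334 and 0.803. At immune resolution 2 the thymocyte, S and pool ratios were 11.9, 0.437 and 0.849. With an assumed, fixed share of UMIs subtracted as free RNA the 4 lineage ratios were 12.7, 18.6, 15.6 and 28.9. The S ratio was then 0.546. With each cell given equal weight the thymocyte, lymphoid, S and pool ratios were 8.51, 7.18, 0.503 and 0.848. With a limit of 0.2% for cycling cells the values were 8.95, 7.24, 5.51, 6.71, 0.531, 0.828 and 0.935. With G2M genes alone they were 11.2, 12.9 and 8.90 in the first 3 lineages, 0.910 for S and 0.789 for the thymocyte pools. Thinned to 1000 UMIs per cell they were 8.95 in thymocytes, 7.62 in epithelial and 9.18 in mesenchymal cells, 0.647 for S, 0.863 and 0.774 for the pools, and 22 members were past 2-fold in thymocytes. Without cells that carry markers of another compartment the epithelial pool ratio was 0.931. With the phase set at equal shares the S ratio was 0.688.

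Chosen after the data were seen, members counted among leading genes gave 6.82, 0.626 and a pool ratio of 1.02, thymocytes with a TRB contig gave 10.1 and 0.569, and without cluster 11 the values were 9.96, 0.604 and 0.770. The count of 38 members past 2-fold in thymocytes was 53 with a limit of 20 UMIs. It was 31 to 39 in other settings but the thinned one, some of them with another fold limit. Only members that reached the UMI limit were counted, and shares over all genes are not given for these other settings. For single members, 186 values moved beyond their interval, 756 did not, and no member past 2-fold turned. Hist2h2aa1, at 0.715 in epithelial cells, was at 1.003 with doublets within pools kept. Hist1h1c ranged from 1.58 to 3.33 in thymocytes and from 1.19 to 2.38 in epithelial cells, so its place against 2-fold depends on the setting. The same holds for Hist1h2be in thymocytes (1.86 to 3.82), and for Hist1h4h (1.87 to 3.06) and Hist1h2bc (1.35 to 2.57) in epithelial cells. Each lineage ratio stayed above 1 and each S ratio below 1 under every setting. The pool ratio of thymocytes turned only where cluster 8, which holds the most histone UMIs per cell, mostly lost its thymocyte name: 293 of its 328 cells fell in an unnamed cluster with hashtags by ratio, and all 328 with members among leading genes. The cause of the turned epithelial pool ratio was not tested.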

Other observations

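Macrophages held members too. The 16 cycling macrophages had a summed level of 1267 CPM and the 147 resting ones 233 CPM. Resting cells of the cluster named parathyroid had 21.5 CPM of Hist1h2bc, close to the level in macrophages (21.9 CPM). A TRB contig was found in 36.8% of the resting cells of this cluster, so the name may not hold for all of them. Within cycling lymphoid cells outside the thymocyte classes, 231 NK or cytotoxic cells had 3791 CPM and 36 γδ T cells had 4711 CPM.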
